A study of Mus musculus with 2 samples.

Results

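S100 genes code for small calcium-binding proteins, and 8 of them (S100b, S100a1, S100a13, S100a16, S100a4, S100a6, S100a10 and S100a11) were followed here through the cells of the mouse arcuate nucleus and median eminence. They are 8 of the 29809 gene rows of the deposited tables, chosen by name with earlier results of these data known. The tissue was microdissected, dissociated and sorted for live cells, and RNA was captured by Drop-seq, in which each droplet tags the 3' ends of 1 cell's transcripts with a cell barcode and a unique molecular identifier (UMI). The study's title names postnatal neurogenesis and leptin sensitivity, and its design sets 2 genotypes of CD-1 mice aged 7-8 weeks side by side. One library was made from 7 pooled wild type mice. The other, called dHet below after its label Irx3/5dHet, came from 5 pooled mice of genotype Irx3/5+/-, heterozygous for loss of these Iroquois transcription factor genes. Each genotype is therefore 1 library. No difference between them has a replicate check, and the intervals given throughout cover counting error only, at 95%.

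After cells with fewer than 300 genes or more than 20% mitochondrial UMIs were left out, together with 17 doublet calls, 2392 wild type and 1480 dHet cells remained, with 4255875 and 2850978 UMIs and medians of 1274 and 1157 UMIs per cell. Irx3 had 30 and 15 UMIs, 7.05 UMIs per 1000000 UMIs (CPM; 4.76 to 10.1) in wild type and 5.26 CPM (2.95 to 8.68) in dHet, and Irx5 had 16 and 6 UMIs. Since the labels do not say which part of either gene was deleted, these 3' tags check neither label. Cells were clustered without the 8 genes, and clusters were named from marker lists. Each name means "like" that type, a suffix left out below. Neurons made up 34.3% of the wild type cells and 47.8% of those of dHet, and 45.3% and 66.9% of the UMIs. The astrocyte, endothelial and dividing cell clusters held fewer than 20 cells in 1 or both libraries and enter no ranking. The libraries shared 3 barcodes.

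S100 proteins work mostly as dimers. Each subunit carries a pair of EF-hands, helix-loop-helix motifs whose loop can hold a calcium ion, and binding of calcium opens a surface that grips target proteins. In brain S100b is the classical glial member, S100a10 pairs with annexin A2 (Anxa2) at membranes, and some family members are secreted and bind surface receptors such as Ager, the receptor for advanced glycation end products.

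For the 7 members on chromosome 3, the part of each gene that codes for the loop of the second EF-hand is given below. It was read in the sense direction from the first coding transcript of each gene in GENCODE M21 (GRCm38, the same coordinates as mm10). The capitals mark the codons for positions 1, 3, 5 and 12 of the 12-residue loop, positions that hold calcium in a typical EF-hand. The search for the loop required aspartate at positions 1 and 5 and aspartate, asparagine or cysteine at position 3. Of the marked positions it left only position 12 free, so likeness at the others is partly set by the search.
S100a1: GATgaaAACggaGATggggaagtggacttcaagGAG
S100a13: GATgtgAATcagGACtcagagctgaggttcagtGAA
S100a16: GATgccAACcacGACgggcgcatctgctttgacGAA
S100a4: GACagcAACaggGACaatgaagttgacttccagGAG
S100a6: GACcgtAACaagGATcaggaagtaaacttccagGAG
S100a10: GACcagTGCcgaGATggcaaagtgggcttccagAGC
S100a11: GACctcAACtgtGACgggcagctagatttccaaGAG
A glutamate codon stood at position 12, and an asparagine codon at position 3, in all of these 7 genes except S100a10, which had neither.

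Of the 8 genes, 7 lie on chromosome 3 in 3 groups, and S100b lies alone on the plus strand of chromosome 10 (chr10:76253853-76261159). S100a1 (chr3:90511034-90514392, minus strand), S100a13 (chr3:90514435-90524581) and S100a16 (chr3:90537254-90543151) are neighbours among the 8, with starts of S100a1 and S100a13 back to back. S100a4 (chr3:90603771-90606045) and S100a6 (chr3:90612882-90624181) follow on the same side, and S100a11 (chr3:93520488-93526287) and S100a10 (chr3:93555080-93564643) lie farther away. All but S100a1 are on the plus strand of that chromosome. S100a4 overlaps the coding gene model Gm42674 on the same strand, so how reads were split between the 2 models is uncertain. The pseudogene S100a11-ps had 1 UMI in each library.

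Oligodendrocyte precursors, cells of the ventricle wall and fibroblasts carried many S100 transcripts, and neurons carried few. The leading members differed between some classes and were shared by others. Summed over the 8 genes, oligodendrocyte precursors had the highest level among the ranked classes, 4554 CPM in wild type and 4507 CPM in dHet. Ependymal cells, which line the ventricle, had 2770 and 2907 CPM, tanycytes, the radial glia of the third ventricle's floor, 2601 and 2602 CPM, and fibroblasts 2355 and 2615 CPM. Neurons had 77.8 and 74.5 CPM. All 8 genes had the same highest class in both libraries, as did 45.2% of the 13143 genes compared. Only 1 of the 8 genes, S100a1, was at least 2-fold above the next class in both libraries, against 12.9% of those genes.

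**Figure D1:**
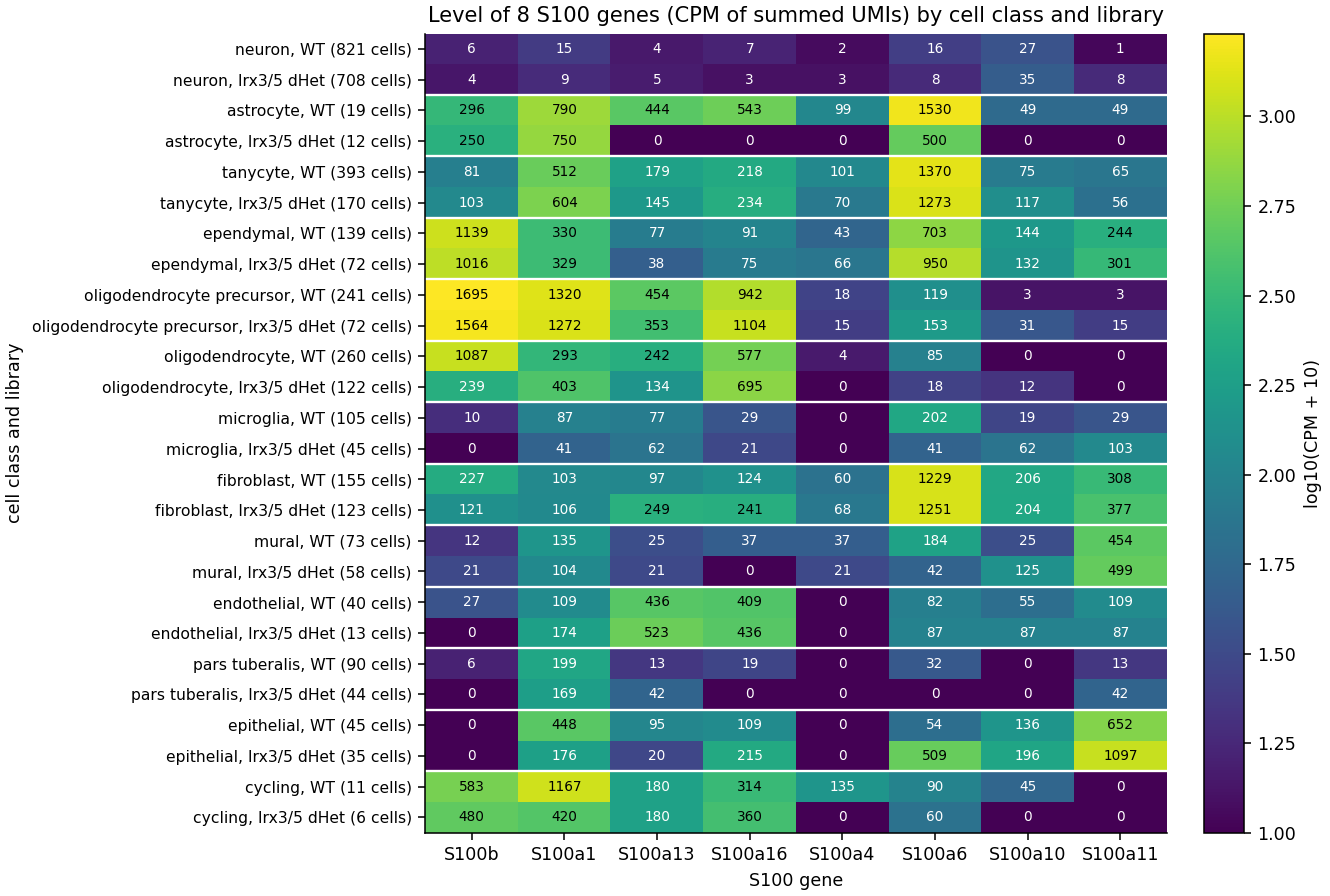
Level of each of the 8 genes (columns; CPM of summed UMIs printed in each field, colour on a log10(CPM + 10) scale) in all named classes, with the wild type (WT) and dHet rows of a class next to each other. Among the classes with 20 or more cells in both libraries, S100b, S100a1, S100a13 and S100a16 were highest in oligodendrocyte precursors, S100a4 and S100a6 in tanycytes, S100a10 in fibroblasts and S100a11 in epithelial cells.

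In single cells the classes differed in how many members were seen together. With each cell thinned to 500 UMIs to even out depth, 81.9% (wild type) and 84.2% (dHet) of precursors had a UMI of at least 1 of the 8 genes, and 49.3% and 54.4% had UMIs of at least 2. The share with at least 1 was 68.6% and 73.5% in ependymal cells, 66.0% and 64.2% in tanycytes, 64.1% and 61.1% in fibroblasts and 53.5% and 46.9% in oligodendrocytes. It was 4.20% and 2.06% in neurons, far below the other classes named here. Free RNA in the droplets was not measured, and its part in these shares was not tested.

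S100b, the glial member best known as a marker of astrocytes and of the oligodendrocyte lineage, was highest in oligodendrocyte precursors, with 1695 CPM (1557 to 1842) in wild type and 1564 CPM (1275 to 1898) in dHet. Ependymal cells had 1139 CPM (998.7 to 1293) and 1016 CPM (833.5 to 1227). Mature oligodendrocytes had 1087 CPM (992.3 to 1188) and 239 CPM (172 to 325), intervals that do not overlap. In wild type, ependymal cells and oligodendrocytes do not differ beyond counting error, whereas in dHet ependymal cells stand clearly above. Tanycytes, at 81.3 and 103 CPM, and fibroblasts, at 227 and 121 CPM, had less than precursors and ependymal cells, although in dHet the intervals of fibroblasts (68.9 to 196) and oligodendrocytes overlap. Neurons had 6.22 CPM (3.22 to 10.9) and 3.67 CPM (1.48 to 7.56). No UMI of S100b was found in epithelial cells of either library. The 19 and 12 cells of the small astrocyte cluster had 296 and 250 CPM.

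The share of cells with a UMI of S100b gave the same order of classes. After thinning to 500 UMIs it was 50.2% (wild type) and 45.6% (dHet) in precursors, 44.9% and 35.3% in ependymal cells, and 23.0% (17.9 to 28.9) and 7.21% (3.16 to 13.7) in oligodendrocytes. Neurons had 0.136% and 0.317%. Without thinning the oligodendrocyte shares were 35.0% and 13.9%, at median depths of 1303 and 1136 UMIs, and those of neurons 1.46% and 0.989%, at 1570 and 1761 UMIs. S100b was thus seen in more oligodendrocytes of the wild type than of the dHet library, and above the neuron level in both.

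**Figure D2:**
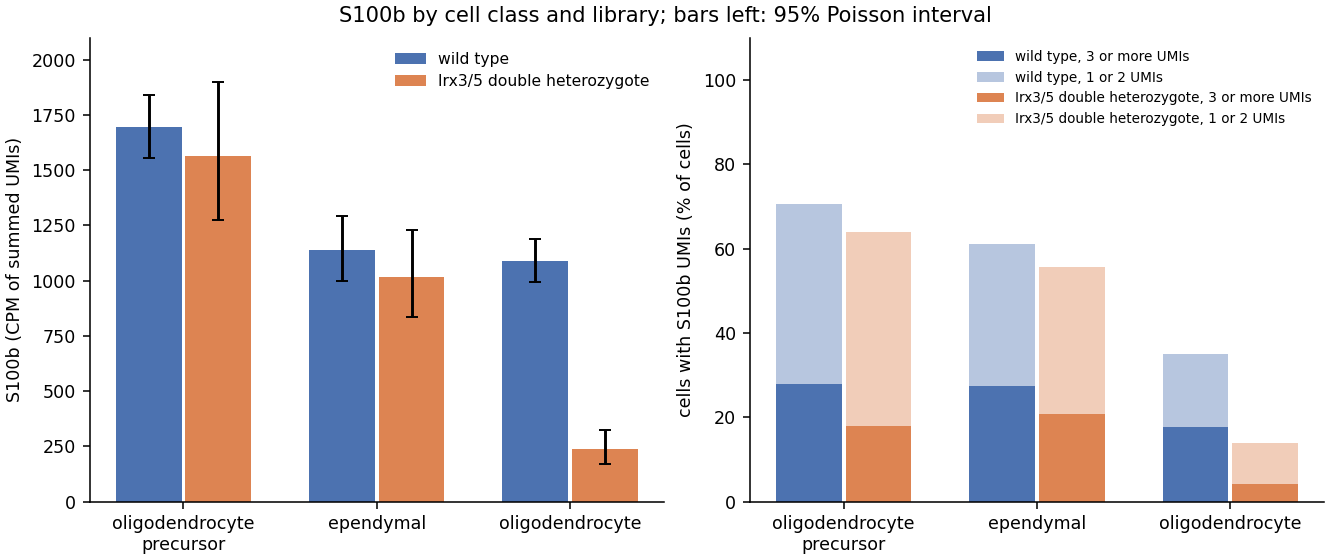
Left, S100b level (CPM, bars with 95% Poisson intervals) in 3 classes of the wild type (blue) and dHet (orange) libraries. Right, the percentage of their cells holding 3 or more (dark) and 1 or 2 (light) S100b UMIs, unthinned. The intervals of the libraries overlap in precursors and ependymal cells, and oligodendrocytes are at 1087 CPM in wild type and 239 CPM in dHet.

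Within the precursors, S100b differed between the clusters. Cluster 18 (20 and 14 cells) was led by Gpr17, Enpp6 and Bcas1, genes of precursors committed to differentiate, and cluster 4 (221 and 58 cells) had Pdgfra and Cspg4, genes of early precursors, among its leading genes beside Gpr17. S100b was 3015 CPM in cluster 18 against 1385 CPM in cluster 4 in wild type, a ratio of 2.18 (1.82 to 2.60), and 2453 against 1350 CPM in dHet, a ratio of 1.82 (1.15 to 2.81). S100a1 did not share that order, with 1203 against 1347 CPM in wild type and 396 (5 UMIs) against 1483 CPM in dHet. S100b was thus higher in the few committed precursors than in the others of the class in both libraries.

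S100a1, a member best known from muscle, where it acts on calcium release, was also highest in precursors, at 1320 CPM (1198 to 1450) and 1272 CPM (1013 to 1577). Tanycytes came next with 512 CPM (459 to 569) and 604 CPM (504.0 to 717), so that precursors were 2.58-fold and 2.11-fold above them. Thinned shares were 42.3% and 42.1% of precursors, 21.6% and 25.8% of tanycytes, and 0.678% and 0% of neurons. S100a1 also made up most of the S100 UMIs of pars tuberalis cells, the pituitary cells beside the median eminence. Their level was 199 and 169 CPM, which was 70.5% and 66.7% of the UMIs of the 8 genes there. In dHet, on few UMIs, the interval of S100a1 overlaps that of S100a13, at 42.2 CPM. In wild type it lies above that of the next member.

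S100a16 and S100a13, 2 less studied members of which S100a13 takes part in the non-classical release of Fgf1, were highest in oligodendrocyte precursors among the ranked classes. S100a16 had 942 CPM (839.7 to 1053) and 1104 CPM (863.6 to 1390) in precursors, 577 CPM (509 to 652) and 695 CPM (575 to 831) in oligodendrocytes, and 218 and 234 CPM in tanycytes. In oligodendrocytes it was the S100 gene with most UMIs in dHet library (46.3% of the UMIs of the 8 genes), whereas S100b held that place in wild type with 47.5%. S100a13 was lower in both classes, at 454 CPM (384 to 533) and 353 CPM (224 to 529) in precursors and 242 and 134 CPM in oligodendrocytes. Tanycytes had 179 and 145 CPM of it and fibroblasts 97.4 and 249 CPM, so that in dHet both were above oligodendrocytes in value. Endothelial cells, too few to be ranked, had 436 CPM (16 UMIs) and 523 CPM (6 UMIs) of S100a13. Neurons had at most 6.74 CPM of either gene in either library.

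S100a6, or calcyclin, a member found in many dividing and glial cells, was the main S100 gene of tanycytes and fibroblasts. Its level was 1370 CPM (1282 to 1462) and 1273 CPM (1126 to 1434) in tanycytes, 1229 CPM (1074 to 1399) and 1251 CPM (1068 to 1457) in fibroblasts, and 703 CPM (594 to 827) and 950.3 CPM (774 to 1155) in ependymal cells. Tanycytes and fibroblasts did not differ beyond counting error in either library, and the leading class is not firm: it stayed the same in 2 of 9 alternative settings. Of the tanycyte UMIs of S100a6, 865 of 910 in wild type and 261 of 272 in dHet came from cluster 2, 1 of the 2 tanycyte clusters. With doublets kept, where that cluster was named astrocyte, tanycytes had 179 and 122 CPM of S100a6. Thinned shares were 44.1% and 41.1% of tanycytes, 39.3% and 45.1% of fibroblasts, and 0.949% and 0.317% of neurons. Single cells set the value in 2 other places. In microglia, 18 of 21 wild type UMIs came from 1 cell, and in epithelial cells 19 of 26 dHet UMIs came from 1 cell.

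S100a4, a member tied to cell movement and common in fibroblasts and leukocytes, was rare. It reached 101 CPM (78.2 to 128) and 70.2 CPM (39.3 to 116) in tanycytes, 59.5 and 67.8 CPM in fibroblasts and 43.1 and 65.9 CPM in ependymal cells, with overlapping intervals. Microglia, pars tuberalis and epithelial cells held 0 UMIs of S100a4 in both libraries, where the 3 UMIs set as the detection floor would have been 19.2 to 61.7 CPM.

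The 2 tanycyte clusters differed in S100a6 and S100a4, and with wide intervals in S100b and S100a10. Cluster 2 (305 and 117 cells) and cluster 10 (88 and 53 cells) had median depths of 1151 and 2041 UMIs. Markers of beta2 tanycytes, the median eminence subtype, summed to 553 and 659 CPM in cluster 2 and to 2954 and 4293 CPM in cluster 10. Markers of the alpha and beta1 subtypes of the ventricle wall were at 1854 and 1913 CPM against 1544 and 1695 CPM. Not every marker followed these sums, since the listed beta2 marker Pdzph1 was among the leading genes of cluster 2. Mia, an alpha and beta1 marker, is also on the list of ependymal markers. S100a6 was 1930 CPM in cluster 2 and 208 CPM in cluster 10 in wild type, a ratio of 9.28 (6.87 to 12.8), and 2125 and 121 CPM in dHet, a ratio of 17.6 (9.65 to 35.6). S100a4 was 145 CPM (65 UMIs) against 9.25 CPM (2 UMIs) in wild type, a ratio of 15.7 (4.17 to 132), and 114 CPM (14 UMIs) against 1 UMI in dHet. Both genes were thus concentrated in the cluster with the lower sum of beta2 markers. In cluster 10 S100a1, at 338 and 286 CPM, was above S100a6.

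S100b had 112 against 18.5 CPM in these clusters in wild type, a ratio of 6.03 (2.21 to 23.0), and S100a10 103 against 18.5 CPM, a ratio of 5.55 (2.03 to 21.2). Both intervals overlap those of S100a6 and S100a4. In dHet S100b had 20 UMIs against 2, a ratio of 7.40 (1.80 to 65.3), and S100a10 155 against 66.0 CPM, a ratio of 2.34 (0.899 to 7.17). S100a1 had 596 against 338 CPM in wild type, a ratio of 1.77. S100a16, at 219 and 217 CPM in wild type, showed no such difference there. Ependymal markers moved with these values: 9 of 9 had UMIs in cluster 2, summing to 3590 and 4421 CPM, whereas cluster 10 had UMIs of 7 and 5 of them, summing to 1466 and 1442 CPM, with Tmem212 and Hdc at 0. Cluster 2 also passed the naming rule for ependymal cells and astrocytes, and astrocyte markers summed to 2568 and 3745 CPM in it and to 4564 and 4194 CPM in cluster 10. The part of these cells in the difference was not tested. When tanycytes were instead split by whether the cell itself held more UMIs of alpha and beta1 or of beta2 markers, a split chosen after seeing the data, S100a6 was 1737 against 636 CPM in wild type and 1786 against 434 CPM in dHet. The order held with ratios of 2.73 and 4.11, well below those between clusters. The 93 and 40 tanycytes with equal UMIs of both marker sets had 1755 CPM (1501 to 2040) and 2331 CPM (1839 to 2913). S100a6 was thus lower in cells with more beta2 marker UMIs. It was not higher with more alpha and beta1 marker UMIs than with equal UMIs.

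**Figure D3:**
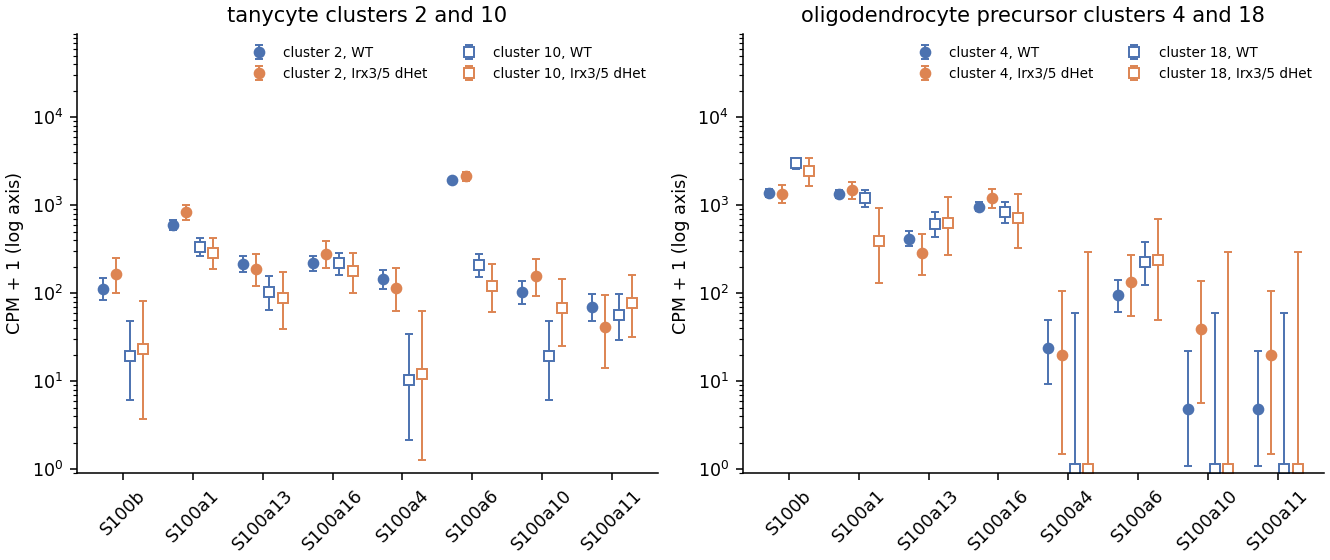
Levels of the 8 genes (CPM + 1 on a log axis, with 95% counting intervals) in the tanycyte clusters 2 and 10 (left) and the precursor clusters 4 and 18 (right), by library. S100a6 and S100a4 are lower in cluster 10 than in cluster 2 in both libraries, and S100b is higher in cluster 18 than in cluster 4.

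S100a11, a member linked to membrane repair and the growth of epithelia, was highest in epithelial cells, the cluster led by Cyp2f2, Epcam and Krt18, which also passed the naming rule for pars tuberalis. Their level was 652 CPM (481 to 864) in wild type and 1097 CPM (828 to 1424) in dHet, where 23 of the 56 UMIs came from 1 cell. Mural cells, the pericytes and muscle cells of vessel walls, had 455 CPM (320.0 to 627) and 499 CPM (320 to 743), and fibroblasts 309 and 377 CPM. Ependymal cells had 244 and 301 CPM, and pars tuberalis cells 12.8 and 42.2 CPM. Oligodendrocytes had 0 UMIs of S100a11 in both libraries, where 3 UMIs would have been 6.71 and 17.5 CPM. S100a11 was the main member of mural cells in both libraries, with 50% and 60% of the UMIs of the 8 genes.

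S100a10, the annexin A2 partner, was spread over fibroblasts at 206 CPM (146 to 282) and 204 CPM (134 to 296), epithelial cells at 136 and 196 CPM, ependymal cells at 144 and 132 CPM, and tanycytes at 75.3 and 117 CPM. The intervals of these classes overlap, apart from wild type fibroblasts and tanycytes. It was nearly missing from the oligodendrocyte lineage, with 0 and 2 UMIs in oligodendrocytes and 1 and 2 in precursors. Anxa2 was highest in epithelial cells, at 991 and 998.6 CPM, and in ependymal cells, at 799 and 649 CPM, with 479 and 459 CPM in tanycytes, 390 and 520 CPM in fibroblasts, and 20.1 and 17.5 CPM in oligodendrocytes.

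In neurons S100a10 was the member with most UMIs in both libraries. Its level there was 27.5 CPM (20.6 to 36.0) and 35.1 CPM (27.2 to 44.6), or 53 and 67 UMIs, which made up 35.3% and 47.2% of the UMIs of the 8 genes in neurons. A UMI was found in 39 of 821 wild type neurons (4.75%) and 47 of 708 dHet neurons (6.64%), and after thinning in 1.49% and 0.792%, the opposite order, so no difference is read from these shares. The other members ranged from 1.04 to 16.1 CPM, and the wild type interval of S100a6 (10.9 to 22.8) overlaps that of S100a10. Pars tuberalis cells, at a similar median depth (1586 and 1286 UMIs), held 0 UMIs of S100a10, where 3 would have been 19.2 and 42.2 CPM, and wild type oligodendrocytes also held 0. Neurons carried 27.9% and 42.7% of all S100a10 UMIs. Among neuron clusters, S100a10 was at 119 CPM (43.6 to 259; 6 UMIs) and 51.3 CPM (10.6 to 150.0; 3 UMIs) in cluster 17, led by Tac2 and Kiss1 (16 and 20 cells). It was at 54.4 CPM (17.7 to 127; 5 UMIs) and 65.4 CPM (35.8 to 110; 14 UMIs) in cluster 15, led by Agrp and Npy (14 and 42 cells). Cluster 13, with Foxb1 among its leading genes (65 and 28 cells), held 0 UMIs in both libraries, where 3 would have been 22.8 and 46.6 CPM. The order of clusters 17 and 15 differed between the libraries, with overlapping intervals.

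For S100a11, 2 wild type neuron UMIs came from 1 cell and 16 dHet UMIs from 7 cells, whose depths ran from 2727 to 14461 UMIs around a median of 6075, against 1761 for the class. After thinning, 0.136% and 0% of neurons had a UMI of S100a11. The part of cell depth or of undetected doublets in these counts was not tested.

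Compared over all cells, 6 of the 8 genes were lower in dHet library by at least 1.5-fold. Of all genes, 31.9% differed that much in either direction, 22.5% lower and 9.38% higher. S100b was 332 CPM in wild type and 108 CPM in dHet (log2 ratio -1.62). The log2 ratio was -1.15 for S100a13, -0.98 for S100a1, -0.89 for S100a4, -0.82 for S100a16 and -0.71 for S100a6, against 0.30 for S100a10 and 0.26 for S100a11. The larger neuron share moved with these values. Over cells other than neurons 3 of the 8 passed, against 33.4% of all genes. S100b was lower with a log2 ratio of -0.92 (-1.10 to -0.74), and S100a10 and S100a11 higher with 0.70 (0.30 to 1.09) and 0.88 (0.59 to 1.16). The makeup of these other cells differed too. Precursors made up 10.1% of all wild type and 4.9% of all dHet cells, and tanycytes 16.4% and 11.5%. Fibroblasts were 6.5% and 8.3%, mural cells 3.1% and 3.9%, and epithelial cells 1.9% and 2.4%. The part of this makeup in the ratios was not tested.

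Within classes the 8 genes showed no common direction. In tanycytes 1 of 8 passed 1.5-fold, against 39.6% of all genes, and their median log2 ratio was 0.003 against 0.02 over all genes. That gene was S100a10, with 50 and 25 UMIs and a log2 ratio of 0.65 (-0.12 to 1.36). Cluster 2 held 305 of the 393 wild type and 117 of the 170 dHet tanycytes. Within clusters 2 and 10 the ratio of dHet to wild type was 1.41 (1.11 to 1.77) and 0.848 (0.520 to 1.34) for S100a1. It was 1.10 (0.955 to 1.27) and 0.582 (0.271 to 1.14) for S100a6, and 0.865 and 0.866 for S100a13. The part of tanycyte cluster makeup in the ratios was not tested. In neurons 5 of the 7 genes with at least 10 UMIs passed, against 30.4% of all genes, all on low counts. The largest neuron cluster was cluster 1 in wild type (257 cells, with 218 in cluster 0) and cluster 0 in dHet (284 cells, with 237 in cluster 1), at median depths of 931 UMIs for cluster 1 and 3589 UMIs for cluster 0 over both libraries. The part of this makeup in the ratios was not tested. S100b, S100a1, S100a16 and S100a6 were lower in dHet and S100a11 higher, and the intervals of S100b (-2.35 to 0.70), S100a1 (-1.67 to 0.22) and S100a16 (-3.20 to 0.22) crossed 0. The other 2 lay at -0.92 (-1.91 to -0.02) for S100a6 and 2.74 (0.93 to 6.18) for S100a11. Within clusters 0 and 1 not all kept these directions. S100a1 had 8 wild type and 15 dHet UMIs in cluster 0, a ratio of 1.57 (0.623 to 4.26), and 12 and 1 UMIs in cluster 1. S100a11 had 0 and 15 UMIs in cluster 0 but 2 and 1 in cluster 1. S100b had 9 and 5 UMIs in cluster 0 and 2 and 0 in cluster 1, and S100a6 12 and 10, then 11 and 5. S100a16 had 3 and 3 UMIs in cluster 0 and 4 and 1 in cluster 1. The ratio intervals of S100b, S100a6 and S100a16 span 1 in both clusters, so no direction is read from them.

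In fibroblasts 3 of 8 passed, against 45.1% of all genes. S100a13 had 18 UMIs (97.4 CPM) in wild type and 33 UMIs (249 CPM) in dHet, a log2 ratio of 1.33 (0.48 to 2.27). S100a16 had 23 and 32 UMIs, or 124 and 241 CPM (0.95, 0.14 to 1.79), and S100b 42 and 16 UMIs (-0.89, -1.85 to -0.05). S100a6, S100a11 and S100a10, which had most fibroblast UMIs over both libraries, did not reach 1.5-fold.

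**Figure D4:**
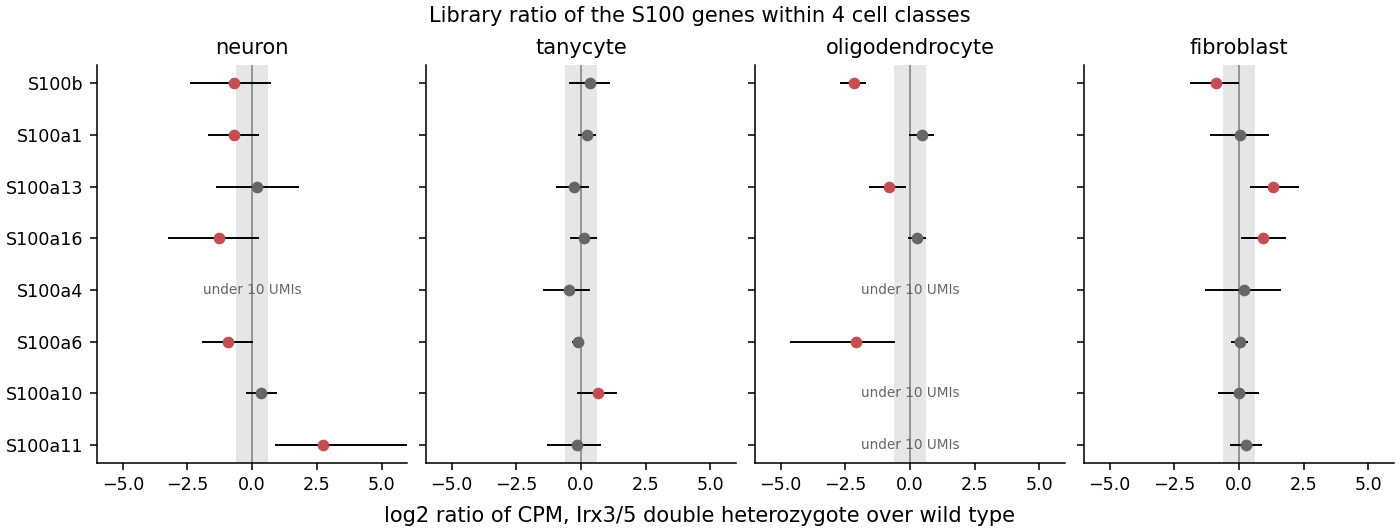
Log2 ratio of the dHet to the wild type level (points with 95% counting intervals) of each gene in the 4 classes with at least 100 cells in both libraries. The grey band spans differences under 1.5-fold and red points lie outside it. The interval of S100a11 in neurons runs past the axis, and S100b in oligodendrocytes is lower, at -2.17.

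In oligodendrocytes 3 of the 5 genes with at least 10 UMIs passed, against 40.0% of all genes. S100b had 486 UMIs in wild type and 41 in dHet, a ratio of 0.220 (0.156 to 0.303) and a log2 ratio of -2.17 (-2.68 to -1.72). S100a6 had 38 and 3 UMIs (-2.08, -4.62 to -0.62) and S100a13 108 and 23 UMIs (-0.82, -1.57 to -0.19). S100a1 and S100a16 had log2 ratios of 0.46 (0.02 to 0.89) and 0.27. Of the 4 members highest in precursors, S100b and S100a13 were thus lower in dHet oligodendrocytes, and S100a1 and S100a16 were not.

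Per cell, the wild type library had a tail of S100b-rich oligodendrocytes. Cells with 3 or more S100b UMIs were 46 of 260 in wild type (17.7%, 13.2 to 22.9) and 5 of 122 in dHet (4.10%, 1.34 to 9.30), and the highest cell held 26 and 8 UMIs. The same shares were 27.8% and 18.1% in precursors and 27.3% and 20.8% in ependymal cells.

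The genes Klk6, a secreted protease, and Hopx, a small homeodomain protein, which mark a subset of mature oligodendrocytes, moved with S100b. Klk6 had 145 UMIs in wild type and 3 in dHet (324 and 17.5 CPM), and Hopx 41 and 0. The myelin gene Mog was at 2301 and 2282 CPM and Mal, a myelin membrane protein gene, at 4949 and 6928 CPM. Cells with a UMI of Klk6 or Hopx were 38 of the wild type (14.6%, 10.6 to 19.5) and 2 of dHet oligodendrocytes (1.64%, 0.199 to 5.80), and they held 59.9% and 14.6% of the S100b UMIs of the class. Their S100b level was 3416 CPM (291 UMIs) in wild type and 2796 CPM (6 UMIs) in dHet. In the other 222 and 120 cells, a comparison added after seeing the data, S100b was 539 and 207 CPM, a ratio of 0.384 (0.260 to 0.553). The difference was smaller without these cells, and its interval lay below 1. In wild type, cells with a UMI of Klk6 or Hopx had a median depth of 1896.5 UMIs and those without 1218.5. Shallow cells of that subset can therefore remain among the other cells, and a difference outside the subset was not tested. Over all oligodendrocytes markers of precursors summed to 1067 and 1465 CPM (7 and 3 of 9 had UMIs, with C1ql1 and Neu4 at 0 in both) and those of ependymal cells to 73.8 and 52.5 CPM (7 and 5 of 9). The part of other cells in the S100b difference was not tested.

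In precursors and ependymal cells S100b differed less between libraries. The ratio of dHet to wild type was 0.975 (0.745 to 1.26) in precursor cluster 4, 0.814 (0.538 to 1.19) in precursor cluster 18 and 0.892 (0.704 to 1.13) in ependymal cells. All 3 intervals span 1 and lie above that of oligodendrocytes. These 3 groups held fewer than 100 dHet cells (58, 14 and 72), below the limit set for calling a ratio. In fibroblasts the S100b ratio was 0.530 (0.278 to 0.964), an interval that lies below 1 and overlaps that of oligodendrocytes. In ependymal cells the S100a6 ratio was 1.35 (1.04 to 1.75), under 1.5-fold.

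Across the 10 ranked classes of both libraries (20 points), the 3 most alike pairs of members were neighbours on chromosome 3. The Pearson correlation of log2(CPM + 10) was 0.83 for S100a13 and S100a16, whose genes lie 12.7 kb apart, 0.81 for S100a4 and S100a6 (6.84 kb apart) and 0.78 for S100a10 and S100a11 (28.8 kb apart). S100a1 followed S100a16 (0.76, 22.9 kb apart) and S100a13, its closest neighbour (0.73, 0.043 kb apart). S100b, on its own chromosome, was closest to S100a16 (0.72) and least like S100a11 (-0.22). Nearness and likeness did not go together throughout. S100a16 and S100a4, 60.6 kb apart, had 0.28, S100a6 and S100a10, 2931 kb apart, had 0.65, and in dHet alone S100a6 and S100a10 were the most alike pair (0.81). These values describe 20 points that share depth and free RNA within a library.

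**Figure D5:**
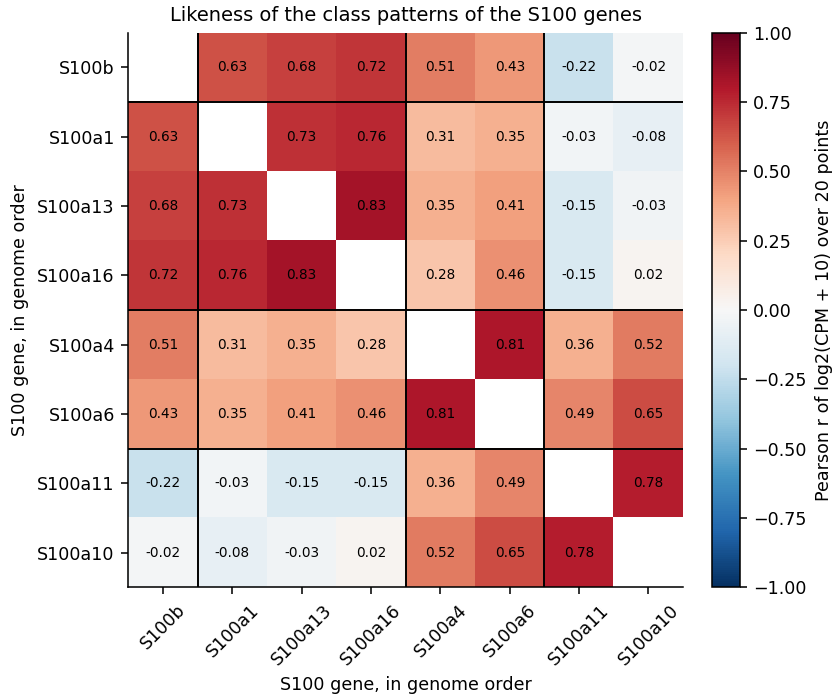
Pearson correlation of log2(CPM + 10) between each pair of the 8 genes over 20 points (10 classes in each library), with S100b first and the others in their order along chromosome 3. The highest values, 0.83, 0.81 and 0.78, belong to genes that are neighbours among the 8.

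Among all other genes with at least 50 UMIs in each library, those with the most similar levels over the same points gave each member a set of companions. For S100b they were Rab31 (0.90), Tuba1a (0.87) and Dbi (0.86), for S100a1 Mif4gd, Ednrb and Eci1 (0.80 to 0.78), for S100a16 Mif4gd, Gpm6b and Phgdh (0.87 to 0.85), and for S100a13 Ppib, Mpzl1 and Ppt1 (0.81 to 0.79). S100a4 went with Prelp, Lhfp and Rarres2 (0.88 to 0.86) and S100a6 with Sox9, Prelp and Bdh2 (0.84 to 0.82), Sox9 being a transcription factor of glial and ventricular cells. S100a10 was closest to Ifitm3 (0.87), Txndc5 (0.86) and Sox9 (0.84), and S100a11 to Ifitm3 (0.96), Ahnak (0.95), the giant scaffold protein held at membranes by the complex of S100a10 and annexin A2, and Myl12a (0.94).

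Of 36 listed binding partners of S100 proteins, 35 were in the tables. Of the 30 with enough UMIs to be ranked, 7 were led at least 2-fold by the same class in both libraries, against 12.9% of all genes. Ahnak was 326 and 333 CPM in epithelial cells, 135 and 354 CPM in mural cells, 227 and 302 CPM in fibroblasts and 0 in oligodendrocytes. Cacybp, which binds S100a6, was 612 and 602 CPM in ependymal cells but 539 and 678 CPM in neurons, where S100a6 was 16.1 and 8.39 CPM. Within oligodendrocytes 0 of 16 partners were higher in dHet by 1.5-fold and 3 were lower, where 17.0% of all genes were higher and 23.0% lower. In tanycytes 3 of 26 were higher and 3 lower (18.4% and 21.2% of all genes), in fibroblasts 0 of 21 and 5 (21.4% and 23.7%), and in neurons 2 of 31 and 4 (9.29% and 21.2%).

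All 9 listed surface receptors were in the tables, and 0 of the 5 with enough UMIs were led at least 2-fold by 1 class, against 12.9% of all genes. Ager had 99 UMIs over both libraries. Its level was 63.2 CPM (45.6 to 85.4) and 154 CPM (106 to 217) in tanycytes and 47.8 and 47.0 CPM in ependymal cells. Tanycytes held 42 of its 54 wild type and 33 of its 45 dHet UMIs. Of the 5 receptors counted in tanycytes Ager was the 1 that was higher by 1.5-fold in dHet, and 0 were lower (18.4% and 21.2% of all genes), while 0 of 4 passed in neurons, 0 of 3 in fibroblasts, and 1 of 3, lower, in oligodendrocytes. Bsg, or basigin, was common, with 494 and 520 CPM in tanycytes and 535 and 555 CPM in neurons.

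Other EF-hand calcium sensors and buffers, 40 of 40 in the tables, followed other lines, and 14 of the 38 that could be ranked were led by 1 class, against 12.9% of all genes. By 1.5-fold in dHet, 7 of 28 were higher and 1 lower in tanycytes, where 18.4% and 21.2% of all genes were, and 5 of 22 and 0 in fibroblasts, where 21.4% and 23.7% were. In oligodendrocytes 1 of 19 was higher and 2 lower, against 17.0% and 23.0%, and in neurons 3 of 36 and 3, against 9.29% and 21.2%. Sparcl1, a secreted matrix protein, was 6388 and 7821 CPM in mural cells. Of the list of glial and stress genes, 1 of 17 was led, against 12.9% of all genes, namely Tmsb4x in microglia at 11990 and 15790 CPM, and in oligodendrocytes 1 of 11 was higher and 3 were lower in dHet, against 17.0% and 23.0% of all genes. Other S100 genes were scarce. Of 13 listed names 9 were in the tables, and the largest after the S100-binding protein gene S100pbp (104 and 77 UMIs) was S100g, a calbindin, with 22 and 7 UMIs in all cells. S100a8 and S100a9, the calcium-binding pair of neutrophils, had 6 and 0 and 2 and 1 UMIs.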

How the data were processed

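The deposited tables hold raw UMI counts per gene and barcode, 1 table per library, and the natural log values of a merged table deposited by the authors served only to list its barcodes. Per the submitters' processing notes, bcl2fastq, Picard, STAR 2.6.0b and Seurat 3 were used with build mm10; annotation and multi-mapping rules were not given in the sources used here. The 8 genes, lists and tests were chosen with earlier results of these data known.

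From the counts, barcodes under 300 genes or over 20% mitochondrial UMIs were dropped, which left 2405 and 1484. Scrublet marked 17 of 3889 (0.437%), too few to have worked, so doublets may remain. Scanpy 1.11.5 and Leiden (0.10.2, resolution 1, 30 components, 2000 variable genes without the 8) gave 21 clusters. A cluster was named from at least 3 detected markers. Differences from the study's own classes may come from these rebuilt names. UMIs were summed per class and library as CPM with exact Poisson intervals. Ratios have exact conditional binomial intervals and shares exact Clopper-Pearson intervals. Ratios were called in classes of at least 100 cells in both libraries, and levels ranked in classes of at least 20. Ratios of ependymal cells and precursor clusters, below that limit, are values only. A gene counted from 10 UMIs in a class (50 for leading classes). There was no test, since each genotype is 1 library, and the detection floor was 3 UMIs per library. The code was tested on simulated data. Genes named beside the 8 were the 3 most alike for each, and of each list up to 4 with most UMIs plus Anxa2, Ahnak, Cacybp and Ager; Klk6, Hopx and the clusters' leading genes were named after their values were seen. Alternatives changed cell filters, doublets, clustering, naming, scaling, thinning and minimum counts.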

Additional observations from a re-analysis of the deposited data

Results flagged for a closer look

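The library ratio of S100a13 went opposite ways in 2 classes: the log2 ratio was 1.33 in fibroblasts (18 and 33 UMIs) and -0.82 in oligodendrocytes (108 and 23 UMIs), and neither interval reached 0. The difference between the classes was not tested.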

How the results depend on the processing

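With 1 pool per genotype, no value has replicate error; low counts limit S100a4, and all members in neurons and microglia. No paired analysis was possible because each genotype is 1 pooled library. Across alternatives, 128 levels stayed within their counting interval and 16 moved. Of the log2 ratios, 381 stayed, 19 moved and 1 reversed. Of those that stayed, 36 came from dropping the minimum count, which cannot change a ratio. A further 36 came from scaling by the median gene ratio, with shifts of only -0.084 to 0.007. S100b in oligodendrocytes ranged from -2.39 to -1.36, with -1.69 as a mean over cells and -1.36 without cells holding a UMI of Klk6 or Hopx. S100b in neurons turned to 0.43 as a mean over cells. The count of genes led 2-fold fell from 1 to 0 with doublets kept, the merged table's barcodes, each cell's own marker score, or the mean over cells. The count past 1.5-fold in tanycytes was 2 with doublets kept, own marker score, mean over cells or without the top cell, and 0 with the 8 genes kept for clustering. Over all cells it was 2 as a mean over cells, and in oligodendrocytes 5 with no minimum count. S100a6 ratios between tanycyte clusters fell to 2.73 and 4.11 under the split by subtype markers. In the dHet library alone, 4 of 8 genes kept their most alike member. With doublets kept, the larger tanycyte cluster was named astrocyte. S100a4 kept its leading class in 5 and S100a6 in 2 of 9 settings, S100a10 in 8, and the other 5 genes in all 9. Shares of cells moved with the thinning depth by construction.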
